A study of Mus musculus with 56 samples.

Results

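The genes described here are 6 markers of B cells and of the antibody-secreting plasma cells that arise from them, out of 21888 gene symbols in the RNA-seq table of mouse livers. They are Igj, Cd79a, Cd79b, Ms4a1, Pou2af1 and Tnfrsf17. They were selected by name with their measured values in view, since Igj stood among the largest rises and had its highest value in 1 mouse at day 21, so their levels and fold changes below are a description and carry no test. Of the 6 genes, 5 passed the filter on low values, a mean of at least 1 FPKM (a level scaled to sequencing depth and corrected for transcript length) over the 14 libraries, and Tnfrsf17 did not.

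The livers came from 11 mice of the 129Sv/J background whose miR-122 precursor is flanked by LoxP sites, and from 3 germline miR-122 knockout mice. miR-122 is the most abundant microRNA of hepatocytes. The floxed mice either were not injected (day 0, 3 mice) or received a tail vein injection of rAAV8 carrying Cre recombinase under the Ef1a promoter and were harvested at day 21 (3 mice), day 45 (3 mice), day 100 (1 mouse) or day 200 (1 mouse). The Ef1a promoter is not specific to hepatocytes, the day 0 mice received no virus, so that loss of miR-122 and exposure to the virus cannot be told apart in the floxed mice, and the knockout mice received none and lacked miR-122 throughout life. Each library was 1 mouse. The floxed mice were adults when injected, and their sex and exact age are not given in the sources used here. Small RNA libraries, described last, came also from 1 or 3 floxed livers at each of several days from 1 to 36 after Cre. Others came from 129Sv/J livers of stages E14 to P270 and from 4 livers of LKO mice, 2 labelled LKO_flox and 2 LKO_floxCre. LKO is the study's name for a liver-specific miR-122 knockout by Cre under the Albumin promoter. The study lists the groups as LKO and LKO + Cre, so the LKO_floxCre mice are taken to have received added Cre.

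B cells recognize antigen through surface immunoglobulin, which signals through the paired chains encoded by Cd79a and Cd79b. Ms4a1 encodes CD20, a membrane protein of mature B cells that is lost when they become plasma cells, and Pou2af1 encodes a coactivator that binds the octamer factors on immunoglobulin promoters. Plasma cells secrete antibody: Igj, now named Jchain, encodes the joining chain that links IgA and IgM into polymers, and Tnfrsf17 encodes BCMA, a receptor for the survival factors APRIL and BAFF. In the liver, polymeric IgA bound to the joining chain is taken up by the receptor encoded by Pigr.

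In the mm9 build Igj lies on the minus strand at chr5:88948834-88956922, with a longest annotated transcript of 1393 bases in 4 exons. Cd79a lies on the plus strand at chr7:25682530-25687216 and has a longest transcript of 1457 bases. Cd79b lies on the minus strand at chr11:106172655-106175843, with a longest transcript of 1431 bases. Ms4a1 at chr19:11325093-11340641 on the minus strand and Pou2af1 at chr9:51021795-51048184 on the plus strand have longer transcripts, of up to 2524 and 2566 bases. Tnfrsf17 at chr16:11313902-11320161 on the plus strand has the shortest, of 815 bases. The 6 genes lie on 6 different chromosomes, so none neighbors another.

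The promoters of Igj and Cd79a are shown because the first gene had the largest change of the 6 and the second encodes a receptor chain of all B cells. Both run from 250 bases before to 50 bases after the RefSeq transcription start in GRCm38.p6, at chr5:88527848-88528147 on the minus strand and chr7:24897247-24897546 on the plus strand, and capitals mark matches to the motifs searched.
Igj: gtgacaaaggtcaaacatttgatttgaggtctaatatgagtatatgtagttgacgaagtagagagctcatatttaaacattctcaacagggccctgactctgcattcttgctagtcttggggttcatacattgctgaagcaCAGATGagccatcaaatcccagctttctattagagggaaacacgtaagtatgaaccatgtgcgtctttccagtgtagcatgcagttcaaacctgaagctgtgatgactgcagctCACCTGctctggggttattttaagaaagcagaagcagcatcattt
Cd79a: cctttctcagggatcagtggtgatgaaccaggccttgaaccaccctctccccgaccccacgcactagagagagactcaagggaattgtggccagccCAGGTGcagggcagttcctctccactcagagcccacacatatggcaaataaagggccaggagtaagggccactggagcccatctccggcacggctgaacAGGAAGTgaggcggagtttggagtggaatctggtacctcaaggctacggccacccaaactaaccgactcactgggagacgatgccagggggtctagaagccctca

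Motifs were searched on both strands in the promoters of the 4 members that have an entry, which are Igj, Cd79a, Pou2af1 and Tnfrsf17. The E box CAGNTG, bound by E proteins such as E2A, matched in Igj at -109 to -104 and at 5 to 10 from the start, in Cd79a at -154 to -149, and in Tnfrsf17 at -203 to -198 and -143 to -138. It is a short motif, present in 51.4% of 32851 promoters of the same length. The Ets core AGGAAGT matched in Cd79a at -55 to -49, and 9.35% of all promoters hold it. The octamer ATGCAAAT, the site of the factors that Pou2af1 binds, is in 1.74% of promoters and the EBF motif CCCNNGGG in 13.7%, and neither was in these 4 windows. None of the 4 promoters held GAGGAAGT, the longer Ets or PU.1 form that contains the Ets core, which is in 3.2% of promoters.

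Igj showed the widest range of the 6 genes. Its FPKM at day 0 were 1.05, 0.534 and 0.621, in the order of replicates A to C that is kept for every group. At day 21 they were 17.7, 13.7 and 112.5. At day 45 they were 66.2, 82.5 and 30.8, and the single livers of day 100 and day 200 had 81.3 and 101.9. Every Cre-treated liver was thus above every day 0 liver, and the highest of the 14 was replicate C of day 21. The mean level rose from 0.736 ± 0.278 FPKM at day 0 to 47.9 ± 55.9 at day 21 (65.1-fold) and 59.9 ± 26.4 at day 45 (81.3-fold, SD, n = 3 each). The SD at day 21 was larger than the mean, and without replicate C the day 21 mean was 15.7 FPKM, 21.3-fold above day 0.

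In the germline knockout Igj was at 9.47, 8.78 and 2.12 FPKM in the same order. All 3 lay above day 0 and below every Cre-treated liver. The mean of 6.79 ± 4.06 FPKM was 9.23-fold the day 0 mean, and 12.4-fold without replicate C, the lowest of the 3.

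Of the receptor chains, Cd79b was the more abundant in every liver. Its FPKM were 2.60, 0.861 and 2.44 at day 0, 4.72, 4.05 and 7.50 at day 21, and 5.25, 6.71 and 5.63 at day 45. Day 100 and day 200 had 3.93 and 6.88. No Cre-treated liver fell into the day 0 range, and the mean was 2.76-fold the day 0 mean at day 21 and 2.99-fold at day 45. The knockout had 6.39, 5.47 and 2.53, so that replicates A and B were among the Cre-treated livers and C was inside the day 0 range.

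Cd79a followed its partner at a lower level. It was at 0.616, 0.319 and 0.992 FPKM at day 0, 2.15, 1.64 and 2.97 at day 21, and 2.46, 3.06 and 2.84 at day 45. The mean was 3.51-fold the day 0 mean at day 21 and 4.34-fold at day 45, and the livers of day 100 and day 200 had 1.72 and 3.04. The knockout livers had 1.70, 1.47 and 0.604, with replicate C again inside the day 0 range. The ratio of Cd79a to Cd79b moved little beside these changes: it was 0.237 to 0.407 at day 0, 0.396 to 0.456 at day 21, 0.456 to 0.504 at day 45 and 0.239 to 0.269 in the knockout.

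Ms4a1, the marker of mature B cells, was at 0.388, 0.351 and 0.602 FPKM at day 0. It was at 1.31, 1.59 and 1.99 at day 21, 1.24, 1.86 and 1.40 at day 45, and 1.25 and 2.46 at day 100 and day 200. Neither day 21 nor day 45 overlapped with day 0, with means 3.64-fold (day 21) and 3.36-fold (day 45) that of day 0. The knockout differed from the Cre-treated livers here: replicates A and B had 0.240 and 0.246 FPKM, below every day 0 liver, and replicate C had 0.676, above every day 0 liver. The same A and B livers had Cd79b levels of the Cre-treated range, so their ratio of Ms4a1 to Cd79b was 0.0376 and 0.045, against 0.149 to 0.408 in the other 12 livers.

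Pou2af1 was at 0.310, 0.156 and 0.295 FPKM at day 0. It was at 0.978, 0.901 and 3.94 at day 21, 1.53, 1.85 and 1.24 at day 45, and 1.51 and 2.36 at day 100 and day 200. As for Igj, replicate C of day 21 was the highest of all 14 livers. The mean at day 21 was 7.64-fold that of day 0, and 3.70-fold without replicate C. At day 45, with 3 livers close together, it was 6.06-fold. The knockout livers had 0.601, 0.975 and 0.564, all above day 0.

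Tnfrsf17 was the least abundant. At day 0 it was listed at 0.026, 0 and 0 FPKM, and at day 21 at 0, 0.097 and 0.390. Day 45 had 0.384, 0.344 and 0.205, day 100 and day 200 had 0.365 and 0.598, and the knockout had 0.127, 0.206 and 0.051. The steps of the low values put 0.026 FPKM in that day 0 library at about 1 fragment and the 0.051 FPKM of knockout replicate C at 0.95, so no fold change is given. All 3 day 45 livers were above all 3 day 0 livers, whereas day 21 replicate A was at 0.

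**Figure D1:**
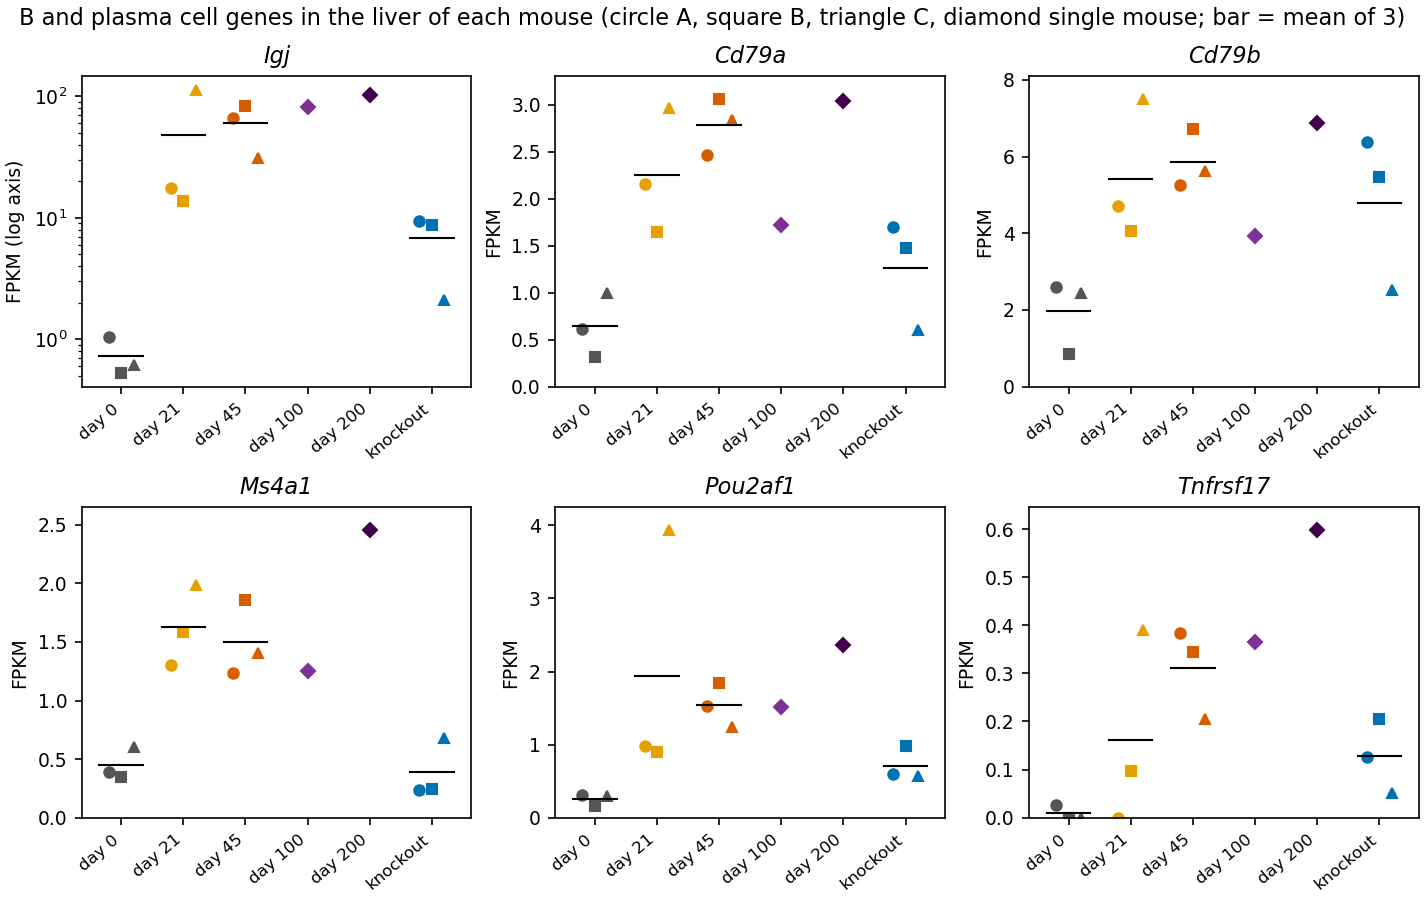
FPKM (vertical axis, log scale for Igj and linear from 0 for the others) of the 6 genes in each of the 14 livers by group (horizontal axis); symbols give the replicate and bars the mean of 3 mice. Igj sits at 0.534 to 1.05 at day 0 and at 13.7 to 112.5 after Cre, and Ms4a1 in knockout replicates A and B lies below day 0.

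Counted over groups, all 3 day 21 livers were above all 3 day 0 livers for 5 of the 6 genes, where 23.9% of all 17758 genes with a value did the same. At day 45 this held for 6 of 6, where it held for 40% of all genes, and in the knockout for 3 of 6 (Igj, Pou2af1 and Tnfrsf17), where it held for 21.7%. For Tnfrsf17 this rests on about 1 fragment in knockout replicate C against 1 in day 0 replicate A. As the genes were selected on these contrasts, nothing is read from these counts. The comparisons also share the 3 day 0 mice. In whole-liver RNA, more B cells and plasma cells, and more RNA of these genes per cell, cannot be told apart.

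The order of the levels changed with time. At day 0 Cd79b was highest on average (1.97 ± 0.96 FPKM), and the ranges of Igj, Cd79a and Ms4a1 overlapped below it. At day 45 Igj was 59.9 ± 26.4, followed by Cd79b with 5.87 ± 0.757 and Cd79a with 2.79 ± 0.302. Pou2af1, with a mean of 1.54 ± 0.305, and Ms4a1, with livers between 1.24 and 1.86, did not differ beyond their spread, and Tnfrsf17 was last with 0.311 ± 0.094 (SD, n = 3).

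The plasma cell product Igj changed more than the B cell receptor chain. The ratio of Igj to Cd79b was 0.405, 0.62 and 0.255 at day 0. It was 3.75, 3.37 and 15.0 at day 21, and 12.6, 12.3 and 5.48 at day 45. At day 100 and day 200 it was 20.7 and 14.8, and in the knockout 1.48, 1.61 and 0.839. The 14 livers fell into ranges that did not overlap between day 0, the knockout and the Cre-treated mice. As Igj was selected for its rise, this separation is a description and nothing is read from it. Within day 21 replicate C stood 4.00-fold above replicate A.

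Another plasma cell gene tracked Igj more closely than the receptor chains did. The row 2010001M09Rik is Mzb1, which encodes a chaperone of antibody assembly in the endoplasmic reticulum. Its FPKM were 0.471, 0.078 and 0.180 at day 0, 3.62, 2.13 and 33.9 at day 21, 12.6, 10.4 and 5.05 at day 45, 7.33 and 6.88 at days 100 and 200, and 2.21, 1.57 and 0.295 in the knockout. The ratio of Igj to Mzb1 lay between 2.24 and 14.8 in all 14 livers, while Igj itself spanned 0.534 to 112.5 FPKM. Replicate C of day 21 was the highest for both genes.

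**Figure D2:**
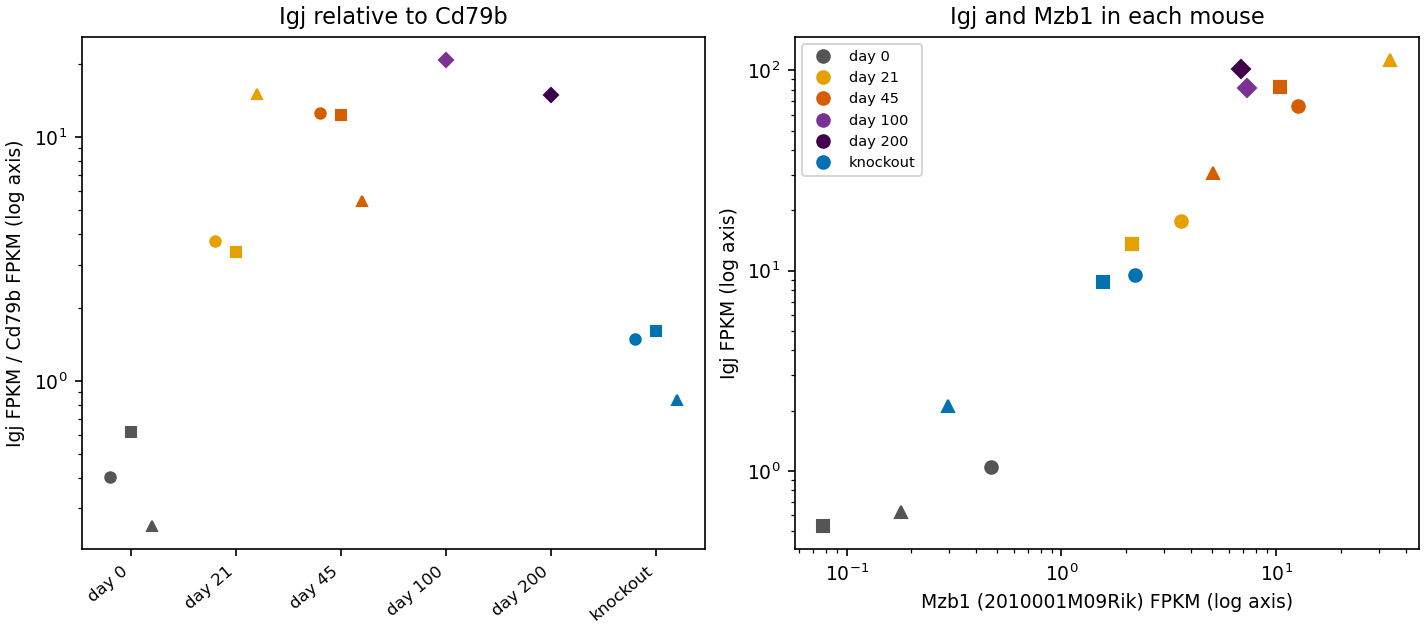
Left, the ratio of Igj to Cd79b FPKM in each liver (log axis) by group; right, Igj against Mzb1 FPKM in the same livers (both axes log), with colors for groups and symbols for replicates as on the left. The ratio is 0.255 to 0.62 at day 0 and 3.37 to 20.7 after Cre, and in the right panel Igj is lowest in the day 0 livers, Mzb1 in knockout replicate C (0.295) lies within its day 0 range (0.078 to 0.471), and both genes are highest in day 21 replicate C.

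The genes most like Igj over the 14 livers, by Pearson's r of log2(FPKM + 1) among 11349 other tested genes, were Pik3cd (0.971), Fcrla (0.959), Dram1 (0.958), Ms4a6d (0.956) and Bcl2a1b (0.956). Pik3cd encodes the leukocyte PI3-kinase subunit p110δ and Fcrla an intracellular Fc receptor-like protein of B cells, whereas Ms4a6d is a gene of macrophages and other myeloid cells. With log2(FPKM + 0.1) over genes averaging at least 0.1 FPKM, the first 5 were Lax1 (0.974), Mzb1 (0.969), Pik3cd (0.968), Fcrla (0.961) and Dram1 (0.961). For Cd79a they were 1700009P17Rik, Cd22, BC013712, Ptpn6 and Treml4 (0.949 to 0.960), of which Cd22 is a B cell inhibitory receptor. For Cd79b they were AB124611, Ccl5, Lgals3, Slfn2 and Lilrb3 (0.940 to 0.964), and among these Ccl5 is a chemokine of T and NK cells. The points of each correlation share libraries and fall into groups, so r is given as a description without a p-value.

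The other B cell lineage and plasma cell genes were a list of 44 symbols without the members, which holds Mzb1 under both its symbols. Of the list, 24 passed the filter and were compared by limma with Benjamini-Hochberg adjustment over all 11354 tested genes. The filter uses the mean of all 14 livers, and 9 of the 24 averaged under 1 FPKM at day 0 and passed through the groups where they were higher, so counts over the 24 lean toward rises and are a description. Without the filter 43 of the 44 were compared, among 17758 genes. At day 21, 12 of the 24 were called higher, among them all 9 of these, and none lower, where 6.2% of all genes were called higher and 1.42% lower. Without the filter it was 13 of 43, against 3.94% of all genes, with a median log2 fold change of 0.50 against 0.02 for all genes. At day 45, 15 of the 24 were called higher and none lower, and without the filter 27 of 43 against 22% of all genes (median 0.50 against 0.11). With the filter 23.7% of all genes were called higher and 2.99% lower. Of all calls at day 45, 88.8% were higher as deposited and 67.4% after each library was centered on its median ratio; 14 of the 24 genes were then called higher and 1 lower, where 14.5% of all genes were called higher. Without 1 mouse the day 21 count fell to 4 (day 0 replicate A), 3 (day 0 replicate B), 7 (day 21 replicate B) or 4 (day 21 replicate C), and the share of all genes called higher fell to 2.28%, 1.74%, 2.96% and 1.78% in the same order.

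In the small RNA libraries miR-122 was at 4.46% of reads at day 100 and 19.1% at day 200. At day 45 it was at 0.383 to 1.23%. Days 100 and 200, with 1 mouse each, were set against day 0 as a group of 2. Here 16 of the 24 genes were called higher and none lower, where 28.4% of all genes were called higher and 3.21% lower. Without the filter it was 27 of 43 against 30.3% (median log2 fold change 0.53 against 0.20). Of all calls, 89.8% were higher as deposited and 64.3% after centering, which left 11 of the 24 genes and 15.7% of all genes called higher. In the knockout 7 were called higher and none lower, where 19.3% of all genes were called higher and 14.5% lower. Without the filter it was 7 of 43 against 15.4% of all genes, which is close to that share (median 0.17 against 0.01). These shares of all genes called higher also depended on single libraries: at days 100 and 200 the share was 13.7% without day 100, with 11 of the 24 called. In the knockout it was 9.47% without replicate B and 31.7% without replicate C, with 7 and 10 of the 24 called, and 11.8% without day 0 replicate B or knockout replicate A, with 7 called each time. At day 45 it was 14.4% without replicate B, with 15 called. With only both groups of a comparison in the fit, the share of all genes was 12.3% at day 21 and 7.31% in the knockout, with 13 and 5 of the 24 called. Between day 45 and day 21 none of the 24 passed the threshold, where 0.273% of all genes were called higher. An unadjusted limma p under 0.05 was found for 2 of the 24 and for 16% of all genes.

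Of the B cell lineage genes alone, 9 of 12 tested were called higher at day 21, 11 of 12 at day 45 and 6 of 12 in the knockout, where 6.2%, 23.7% and 19.3% of all genes were. Of these 12, 7 averaged under 1 FPKM at day 0, Blnk among them, and passed the filter through the groups where they were higher. All 7 were called higher at day 21 and at day 45, so the adjusted p-values of such genes are a description. Without the filter the counts were 9, 19 and 6 of 25, against 3.94%, 22% and 15.4% of all genes. Blnk, the adaptor that links the B cell receptor to its downstream enzymes, was at 0.54 to 0.96 FPKM at day 0, 2.11 to 4.00 at day 21, 4.43 to 8.03 at day 45 and 6.24 to 12.3 in the knockout. Its log2 fold change by limma was 2.03 (SE 0.28, adjusted p = 0.000584) at day 45 and 2.60 (SE 0.28, adjusted p = 7.3e-05) in the knockout. Cd72, a B cell coreceptor, rose by 1.36 (SE 0.30, adjusted p = 0.0168) at day 21 and by 1.90 (SE 0.30, adjusted p = 0.00106) at day 45. Ciita, the regulator of MHC class II genes, rose by 1.24 at day 21 (SE 0.19, adjusted p = 0.00407), and Cd180, a Toll-like receptor homolog of B cells and macrophages, by 1.49 (SE 0.24, adjusted p = 0.00454).

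Ly6d dominated the summed level of the lineage list. It marks early B cell precursors and is also a gene of squamous epithelia. It went from 1.68 to 3.40 FPKM at day 0 to 164 to 707 at day 45, with 733 and 443 at days 100 and 200 and 277, 493 and 18.3 in the knockout, and its log2 fold change at day 45 was 6.49 (SE 0.93, limma adjusted p = 0.000705). Pax5, the transcription factor that maintains B cell identity, did not exceed 0.29 FPKM in any liver and did not pass the filter.

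Among plasma cell genes 3 of 12 were called higher at day 21, 4 at day 45 and 1 in the knockout, where 6.2%, 23.7% and 19.3% of all genes were, so that the share at day 45 was near that of all genes and the share in the knockout below it. Without the filter they were 4, 8 and 1 of 18, against 3.94%, 22% and 15.4% of all genes. The share at day 45 was then above that of all genes. Of the 12, 2 averaged under 1 FPKM at day 0, Mzb1 and Slamf7. They passed the filter through the groups where they were higher, so their adjusted p-values are a description. Mzb1 rose by a log2 of 2.69 at day 21 (SE 0.69, limma adjusted p = 0.0349) and 2.99 at day 45 (SE 0.69, adjusted p = 0.00742). Its mean FPKM at day 21 was 54.45-fold that of day 0, and 11.8-fold without replicate C. Its difference of 0.84 in the knockout did not pass (SE 0.69, adjusted p = 0.354). Slamf7, a surface receptor of plasma cells and of NK cells, rose by 1.17 at day 21 (SE 0.23, adjusted p = 0.0117), with a mean 10.4-fold that of day 0, or 6.29-fold without replicate C. Cd38 rose by 0.90 at day 45 (SE 0.18, adjusted p = 0.00376). Fkbp11, a folding enzyme of secretory cells that was already at 13.7 to 21.0 FPKM at day 0, rose by 0.93 at day 45 (SE 0.27, adjusted p = 0.0205) and by 1.24 in the knockout (SE 0.27, adjusted p = 0.00552), and was the gene called there. Sec11c, a signal peptidase subunit, passed only against days 100 and 200 among the comparisons with day 0 (0.60, SE 0.19, adjusted p = 0.031). The plasma cell regulator Xbp1, which hepatocytes also express, was at 147 to 206 FPKM at day 0 and 158 to 210.3 at day 45 and did not pass the test (adjusted p = 0.866). The other members of the list did not all point upward: of the 12, 9 had a positive difference at day 21, 9 at day 45 and 6 in the knockout. Creld2, a chaperone of the endoplasmic reticulum, had log2 differences of -0.55 at day 45 (SE 0.31, limma adjusted p = 0.229) and -0.85 in the knockout (SE 0.31, adjusted p = 0.0513), and the kinase gene Pim2 had -0.24 in both (adjusted p = 0.315 and 0.252). In the knockout Txndc5, Edem1 and Derl3, genes of protein folding and disposal in the endoplasmic reticulum, had -0.30, -0.26 and -0.14, and none passed (adjusted p = 0.224, 0.258 and 0.751).

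The ligands of Tnfrsf17 were present at low levels. Tnfsf13, which encodes APRIL, was at 1.05 to 1.45 FPKM at day 0 and 2.72 to 3.45 at day 45 and rose by a log2 of 0.86 (SE 0.23, limma adjusted p = 0.0149). In the knockout it rose by 0.91 (SE 0.23, adjusted p = 0.0114), while its 0.49 at day 21 did not pass (adjusted p = 0.231). Tnfsf13b, which encodes BAFF, averaged under 1 FPKM and was not tested, with 0.14 to 0.42 FPKM at day 0 and 0.46 to 1.12 at day 45. The BAFF receptor Tnfrsf13c was at 0.02 to 0.15 FPKM at day 0 and 0.38 to 0.64 at day 45, and Tnfrsf13b, which encodes TACI, was at most 0.453 in any liver.

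Of 8 tested chemokine, cytokine and receptor genes that position or stimulate B cells, 2 were called higher at day 21 (6.2% of all genes). At day 45 it was 6 (23.7%) and in the knockout 4 (19.3%). Of these 8, 4 averaged under 1 FPKM at day 0 and passed the filter through their higher groups. They include Ccr7 and Il21r, both called at day 21, and Ccl20, so their adjusted p-values are a description. Without the filter the counts were 2, 9 and 2 of 15, against 3.94%, 22% and 15.4% of all genes. The knockout share was then near that of all genes. Ccl25, a chemokine of the gut and thymus, was called lower in the knockout (log2 fold change -1.06, SE 0.19, limma adjusted p = 0.00216) and at days 100 and 200 (-0.71, SE 0.21, adjusted p = 0.0225). Ccr7, the receptor that leads lymphocytes to lymphoid tissue, rose by a log2 of 0.85 at day 21 (SE 0.21, limma adjusted p = 0.0278), and Il21r, the receptor for interleukin 21, by 1.09 (SE 0.22, adjusted p = 0.0136). At day 45 Cxcr4 rose by 1.74 (SE 0.41, adjusted p = 0.00823), and Cxcl12, its ligand, which retains plasma cells in bone marrow, by 0.78 (SE 0.25, adjusted p = 0.038). Ccl20, a ligand of Ccr6, was listed at 0 in all 3 day 0 livers, at 0.50 to 1.13 FPKM at day 45 and at 6.32 and 4.41 at days 100 and 200.

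Of 8 tested genes that handle immunoglobulin, 5 were called higher and none lower at day 21. At day 45 it was 5 higher and 1 lower, and in the knockout 4 higher and 1 lower. Of all genes, 6.2%, 23.7% and 19.3% were called higher and 1.42%, 2.99% and 14.5% lower. The 1 of 8 called lower in the knockout is near the share of all genes. Without the filter 3, 6 and 4 of 9 were called higher, against 3.94%, 22% and 15.4% of all genes. The gene called lower was Pigr. Pigr, the transporter of antibody polymers that contain the joining chain, was at 446 to 570.4 FPKM at day 0, 205 to 339 at day 21, 84.7 to 174 at day 45 and 162 to 288 in the knockout. It fell by 2.09 on the log2 scale at day 45 (SE 0.36, limma adjusted p = 0.00176) and by 1.32 in the knockout (SE 0.36, adjusted p = 0.0171), and its day 21 difference of -0.84 did not pass (adjusted p = 0.197). Cd5l, which binds IgM, rose by 1.41 at day 45 (SE 0.31, adjusted p = 0.00552). The Fc receptor genes Fcgr3 and Fcgr4 rose by 1.33 (SE 0.20, adjusted p = 0.0041) and 1.48 (SE 0.31, adjusted p = 0.0139) at day 21, and Fcer1g, their shared signaling chain, by 1.33 (SE 0.36, adjusted p = 0.0407). No row of the table is an immunoglobulin heavy or light chain gene, so antibody transcripts themselves were not analysed here.

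**Figure D3:**
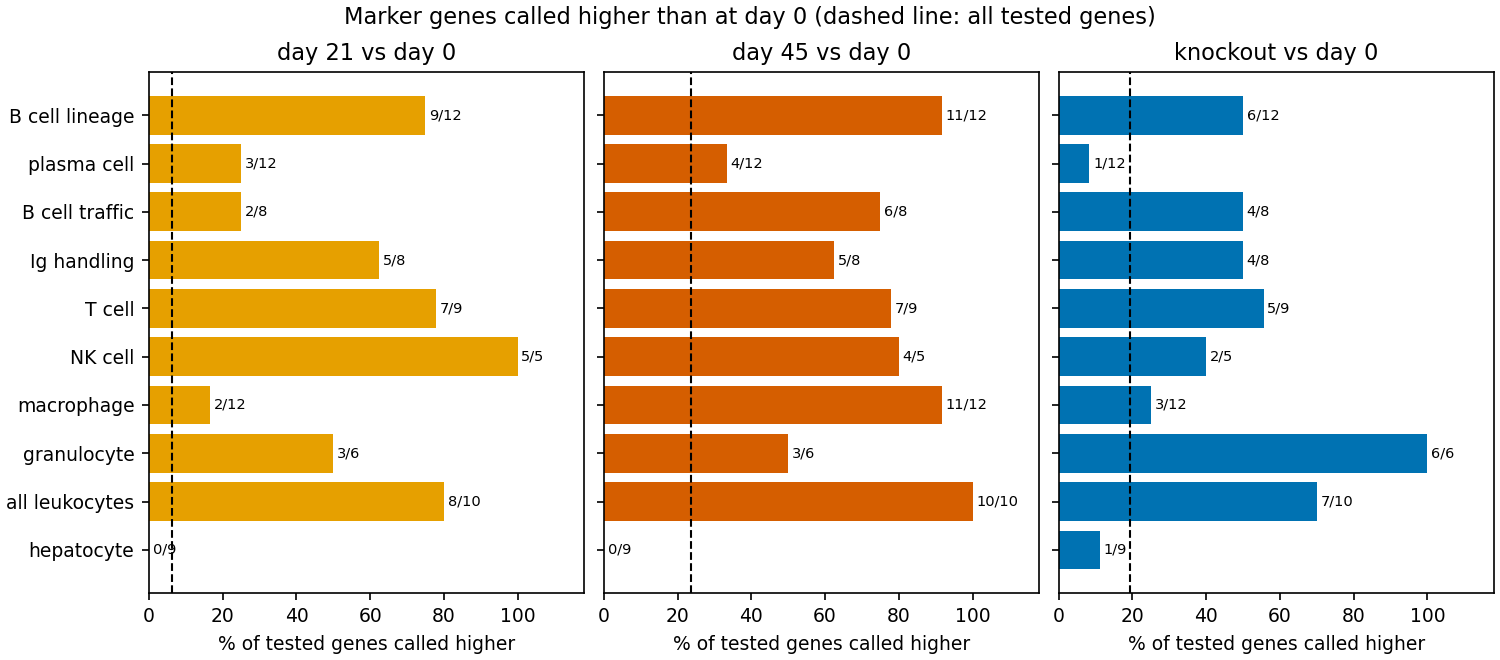
Percent of tested genes of each marker list called higher than day 0 by limma at an adjusted p under 0.05 (horizontal axis, bars from 0, with counts) at day 21, at day 45 and in the knockout; the dashed line is the percent of all tested genes. B cell lineage genes stand at 9, 11 and 6 of 12 and plasma cell genes at 3, 4 and 1 of 12.

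Other leukocyte markers moved in the same livers, and their part in the member values was not tested. The summed level of 14 T cell markers was 3.38 to 6.12 FPKM at day 0, 18.8 to 40.2 at day 21, 16.1 to 22.4 at day 45 and 8.12 to 23.4 in the knockout, with 7, 7 and 5 of 9 tested genes called higher at day 21, at day 45 and in the knockout, against 6.2%, 23.7% and 19.3% of all genes. For 10 genes of all leukocytes the sum was 58.7 to 109.6 at day 0, 193 to 347 at day 21, 251 to 323 at day 45 and 130.1 to 362 in the knockout. The sum of the 6 members was 2.22 to 4.99 at day 0, 21.9 to 129 at day 21, 42.2 to 96.3 at day 45 and 6.55 to 18.5 in the knockout, most of it Igj after Cre. Against the T cell gene Cd3g, Cd79b fell from a ratio of 1.37 to 2.53 at day 0 to 0.796 to 0.839 at day 21, stood at 1.25 to 1.98 at day 45 and at 0.811 and 0.839 at days 100 and 200, and was 1.78 to 3.10 in the knockout. Replicate C of day 21 was highest in that group for the T cell list as well. NK cell markers were called higher for 5, 4 and 2 of 5 tested genes, macrophage markers for 2, 11 and 3 of 12 and granulocyte markers for 3, 3 and 6 of 6, in the same order and against the same shares of all genes. Plasmacytoid dendritic cell markers gave 1, 2 and 1 of 4, proliferation genes 0, 6 and 1 of 6 and stromal markers 3, 5 and 2 of 10. The knockout counts of the macrophage, plasmacytoid dendritic cell, proliferation and stromal lists were near the 19.3% of all genes. As in the B cell lists, genes low at day 0 passed the filter through their higher groups: they were 8 of the 9 T cell, 3 of the 5 NK cell, 4 of the 6 granulocyte and 4 of the 6 proliferation genes tested. In the knockout 2 stromal markers of the sinusoidal endothelium, Lyve1 (log2 fold change -0.93, SE 0.26, limma adjusted p = 0.0165) and Clec4g (-0.87, SE 0.19, adjusted p = 0.00554), were called lower. Of 10 pancreas markers 4 were at 0 in all livers and Prss2 was at most 0.101 FPKM, and the tested pancreas and lymph node markers, Cela1 and Enpp2, passed in no comparison.

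The liver identity of the samples was plain from a hepatocyte list whose sum lay between 18801 and 34943 FPKM, although Alb was listed at 0 in all 14 livers and Serpina1a in most.

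In the knockout the libraries differed in how they represented long transcripts. Genes with a longest annotated transcript over 6000 bases were lower than at day 0 by a median log2 of -0.58 in replicate A and -0.30 in replicate B, while genes under 1500 bases were higher by 0.49 and 0.33. The difference between both classes was -1.07 and -0.62, against -0.34 to 0.43 in the other 12 livers, with replicate C at 0.19. Igj, Cd79a, Cd79b and Tnfrsf17, with transcripts under 1500 bases, were higher in A and B than in C, and Ms4a1, with 2524 bases, was lower. Pou2af1, of similar length to Ms4a1, was at 0.601 and 0.975 in A and B and 0.564 in C. Of the 10 genes of all leukocytes, 8 were higher in both A and B than in C, among them Coro1a (1747 bases) at 43.9, 28.8 and 8.52 FPKM in A, B and C and Laptm5 (2600 bases) at 50.5, 43.2 and 12.3. The other 2 were lower in both, Cd53 and Ptprc (5814 bases), which encodes the leukocyte antigen CD45 and was at 2.08, 2.36 and 4.56. Erythroid markers also set A and B apart, with sums of 839 and 673 FPKM against 71.1 to 240.0 in the other 12 livers. The part of these differences in the knockout values of the 6 genes was not tested.

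**Figure D4:**
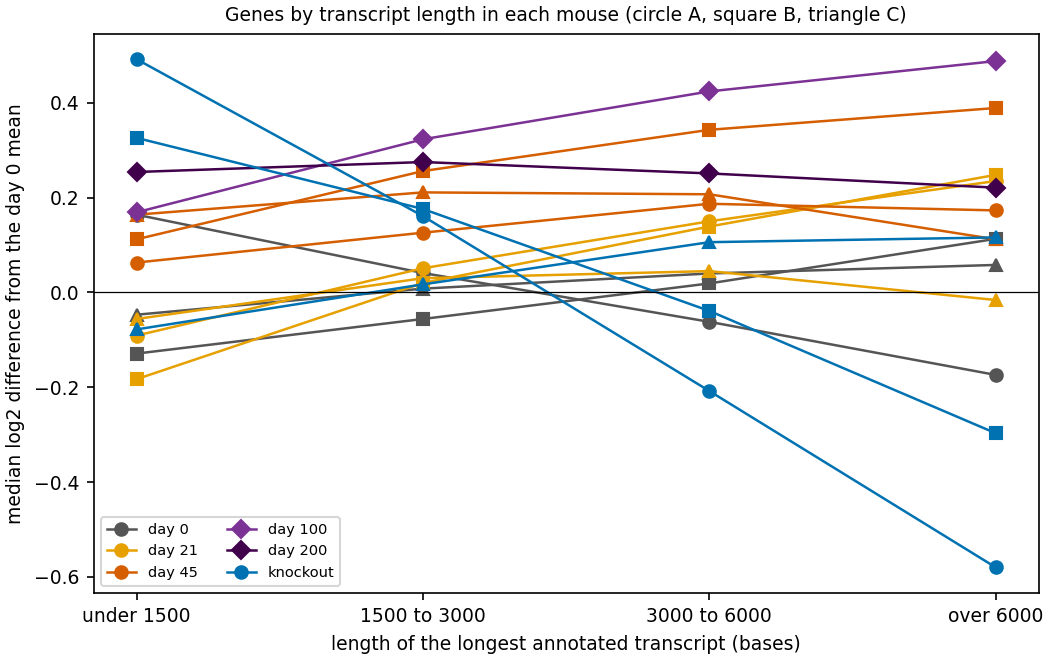
Median log2 difference from the day 0 mean (vertical axis) of tested genes in 4 classes of transcript length (horizontal axis, bases), 1 line per liver. Knockout replicates A and B fall from 0.49 and 0.33 in the shortest class to -0.58 and -0.30 in the longest, and the other livers stay between -0.18 and 0.49.

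The small RNA libraries of the same series give a separate readout of lymphocytes, the microRNA miR-150, which is abundant in mature B and T cells. Rows of that table are precursors, so the arms are not told apart. Levels are RPM (reads of a microRNA scaled to a fixed total) over reads other than miR-122, since miR-122 itself fell after Cre. It made up 59.2 to 73.3% of reads at day 0, 8.22 to 13.2% at day 21 and 0.383 to 1.23% at day 45. In the single libraries of day 100 and day 200 it made up 4.46% and 19.1%. miR-155, which is induced in activated B and T cells and in macrophages, and miR-223, a microRNA of granulocytes, are shown with their seeds (bases 2 to 8) in capitals because both passed the test at day 21; sequences are from RefSeq, and no seed is shared among the 4.
mmu-miR-155-5p: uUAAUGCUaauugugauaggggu
mmu-miR-155-3p: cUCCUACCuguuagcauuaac
mmu-miR-223-3p: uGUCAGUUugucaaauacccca
mmu-miR-223-5p: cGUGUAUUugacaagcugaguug

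miR-150 was at 287, 170.2 and 157 RPM at day 0, in the order of replicates A to C. It was at 299, 981 and 1047 at day 21, and 995, 435 and 287 at day 45. The ranges of day 45 and day 0 touched: day 45 replicate C (286.5) was just under day 0 replicate A (287.2). The log2 ratio was 1.77 at day 21 (SE 0.59) and 1.33 at day 45 (SE 0.59), with limma adjusted p-values of 0.0844 and 0.143 over 253 microRNAs, of which 5.14% and 20.2% were called higher. miR-150 did not pass the threshold in either comparison. The median log2 ratio of all 253 was 0.56 and 0.52.

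miR-155 was at 43.6 to 64.8 RPM at day 0, 249 to 483 at day 21 and 277 to 431 at day 45, with log2 ratios of 2.84 (SE 0.68, limma adjusted p = 0.0162) and 2.63 (SE 0.68, adjusted p = 0.00728). miR-223 rose by 2.22 at day 21 (SE 0.59, adjusted p = 0.0269), and its 1.13 at day 45 did not pass (adjusted p = 0.252). miR-142, a microRNA of all blood cells, had log2 ratios of 0.74 and 1.00 and adjusted p-values of 0.487 and 0.27. No member is among the names of the predicted targets of let-7, miR-122, miR-21, miR-30, miR-410 or miR-483 given with the study.

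**Figure D5:**
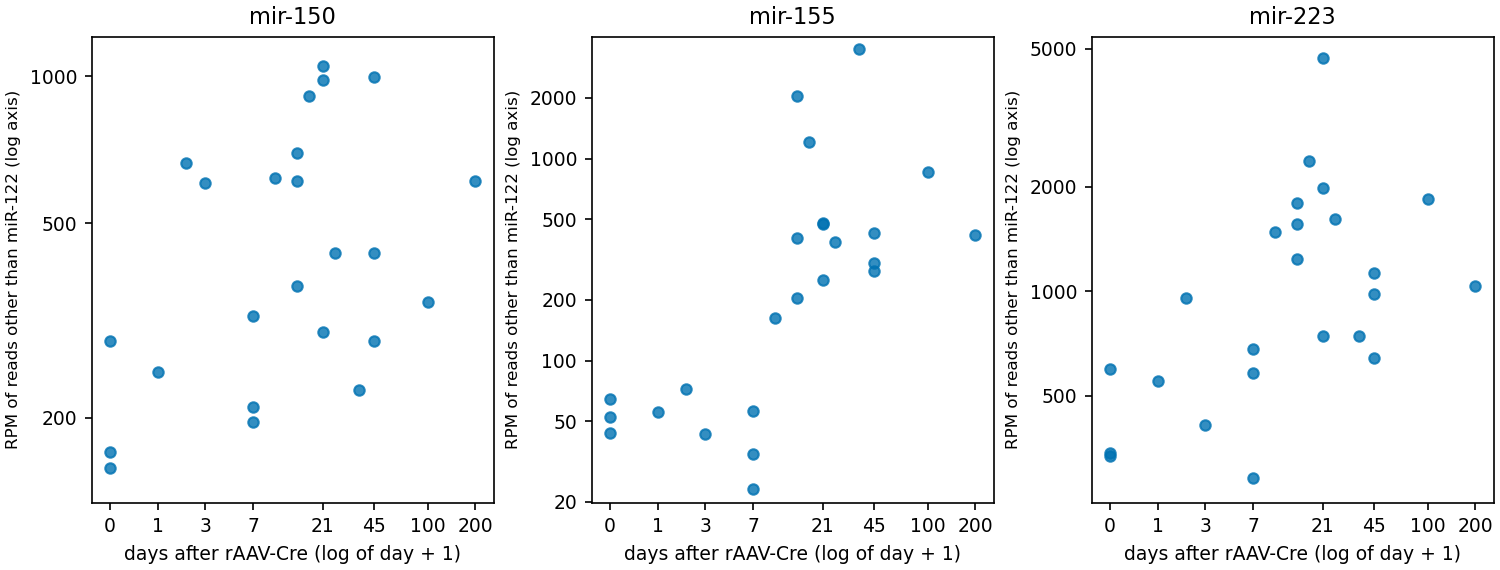
RPM of reads other than miR-122 (vertical axis, log) of the miR-150, miR-155 and miR-223 precursors in each floxed liver by day after rAAV-Cre (horizontal axis, log of day + 1), 1 point per mouse. miR-155 lies at 43.6 to 64.8 at day 0 and at 277 to 431 at day 45, whereas miR-150 at day 45 (287 to 995) reaches down to the day 0 range (157 to 287).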

How the data were processed

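RNA-seq of 14 mouse livers and small RNA-seq of 42 livers were used, each library 1 mouse. The authors aligned poly-A RNA reads to mm9 and deposited FPKM from Cufflinks 2.2.1, scaled to the upper quartile; for small RNA, alignment was with Bowtie 0.12.7, and the authors deposited RPM with 1 added to each value, which was removed here. FPKM hold no fragment numbers, so depth is unknown; steps in low values gave a rough FPKM for 1 fragment, used only to read Tnfrsf17. Where a symbol had several rows (224 symbols) these were added up. Starts of positions, deposited counting from 0, are given counting from 1.

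limma 3.58.1 in R 4.3.3 (lmFit, eBayes with trend) was run on log2(FPKM + 1) of 11354 genes that averaged 1 FPKM or more, all 5 groups sharing a fit, with the livers of day 100 and day 200 as a group. Fold changes from limma are on that scale, which understates low genes. Ratios of means are linear. microRNAs other than miR-122 with a mean of at least 10 RPM were fitted likewise on log2(RPM + 1) over the 15 libraries of the days with 3 mice. The adjusted p threshold was 0.05 (Benjamini-Hochberg). The fit was tested on simulated data. Members and lists were chosen with earlier results of these data known. Genes named are the members, all BAFF and APRIL genes, of other lists mainly those past the threshold with the largest changes (at most 5), and the 5 most like Igj, Cd79a and Cd79b; Pax5, Xbp1, Ptprc and the ratios between genes were singled out after their values were seen. Same-letter mice were not treated as pairs: deviations from group means correlated above 0.1 in 8 of 18 same-letter pairs (-0.45 to 0.50). Pairs of different letters ranged from -0.41 to 0.51, so these values do not decide whether the letters mark pairs. Nothing states separate litters or days, so p-values measure the spread between these mice. Transcript lengths are from GENCODE vM1 (99% of tested genes matched). Alternatives were another pseudocount, filter, scaling, fit, block and leaving out each mouse.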

Additional observations from a re-analysis of the deposited data

Results flagged for a closer look

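miR-150 was above the highest day 0 liver (287 RPM of reads other than miR-122) in 11 livers after rAAV-Cre from days that no comparison used, which is why they stand out. Of days with a single mouse, these were 664 (day 2), 604 (day 3), 618 (day 10), 912 (day 17), 434 (day 25), 345 (day 100) and 610.1 (day 200). Of days with 3 mice, all livers of day 14 (609.8, 695 and 372) and 1 of day 7 (322) were above it. The other livers of day 7 (196 and 211) and the single livers of day 1 (248) and day 36 (227) were inside the day 0 range.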

How the results depend on the processing

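For the other B and plasma cell genes, the count called higher at day 21 (12) was 19 (8.47% of all genes) with pseudocount and filter both at 0.1 FPKM, an alternative added after seeing the data, and 3 to 10 when 1 mouse was left out. At day 45 (15) it was 27 with a filter at a mean of 0.1 FPKM, 27 with no filter and 29 with pseudocount and filter both at 0.1 (26.9, 22 and 29.4% of all genes), and against days 100 and 200 (16) it was 27, 27 and 28 under the same settings (34.7, 30.3 and 34.6%), where 41 or 43 rather than 24 genes of the list are tested. With the replicate letter as a block the day 21 count was 4 (3.39% of all genes called higher) and those of day 45 and the knockout were 15 and 7 (20.9 and 15.9%), with 1 gene called lower in the knockout; whether the letters mark a shared litter or day is not given in the sources used here. The other alternatives kept each count within 1.5 times. For miR-150, dividing by all microRNA reads, miR-122 included, gave log2 ratios of 3.17 at day 21 (limma adjusted p = 0.000619) and 2.90 at day 45 (adjusted p = 0.00045), past the threshold, by construction of a smaller denominator as miR-122 fell; without 1 mouse the ratios were 1.45 to 2.35 and 0.84 to 1.73, past the threshold only without day 21 replicate A (2.35, adjusted p = 0.0279). A count model for miR-150 was not run, as whole reads were not recovered from the deposited values. Of 264 alternatives for the members, 235 moved the log2 difference by less than the spread between mice and none reversed a difference larger than that spread; 19 of the 29 others came from a pseudocount of 0.1 FPKM, which acts on low values. FPKM give no depth, so a value of 0 does not show absence.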

Other observations

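Livers of the small RNA series outside the time course included 4 from mice with a liver-specific knockout of miR-122 by Cre under the Albumin promoter. Of these, the 2 LKO_floxCre mice are taken to have received added Cre. miR-122 made up 9.38 and 3.09% of reads in the LKO_flox libraries and 0.837 and 1.115% in the LKO_floxCre libraries. Their miR-150 levels, in RPM of reads other than miR-122, were 885 and 302 in LKO_flox and 769 and 433 in LKO_floxCre. In wild-type development, E14 livers had levels of 353 and 401, E18 livers 81.8 and 36.7, P1 livers 46.5 and 95.4, P8 livers 163 and 229, and the single livers of P12, P17, P21 and P28 494, 159, 240.0 and 58.8. P270 livers had 91.3 and 81.9.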
